A study of Mus musculus with 2 samples.

Results

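The enzymes and transporters of glycolysis, lactate handling, the pentose phosphate pathway and glycogen turnover were followed in EpCAM-positive cells of mouse mammary tumours. The 38 genes were taken from the deposited tables by gene symbol, out of 16902 genes listed in either library, and all 38 were listed in both libraries. The tumours with a conditional knockout of Zeb1 (PyMT;Zeb1cKO) and the tumours without it (PyMT) both carried the polyoma middle T oncogene, and each group was read as 1 RNA sequencing library. The labels name no promoter for the oncogene, no Cre driver, no strain and no age, and they do not say how many tumours went into a library. The study asked how Zeb1 in tumour cells drives the M2-like polarisation of macrophages.

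Glycolysis takes up glucose through facilitated transporters, traps and splits it in its preparatory phase, and recovers ATP, pyruvate and lactate in its payoff phase. The pentose phosphate pathway branches off at glucose 6-phosphate to make NADPH and ribose phosphate, and glycogen stores glucose through glucose 1-phosphate. Tumour cells are known for running glycolysis to lactate even in air, and many of its genes are classical targets of the hypoxia-inducible factors.

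More than 1 in 2 of the glycolytic and glycogen members were lower in the PyMT;Zeb1cKO library, and no member of the pentose phosphate pathway was. A gene is called lower or higher here when its FPKM (fragments per kilobase of transcript, scaled to the depth of the library, the authors' deposited value) differed at least 2-fold after adding 1 to both values. Of 26 glycolysis and lactate genes, 15 were lower and none was higher, with a median log2 ratio (knockout over PyMT) of -1.05. Of 5 glycogen genes, 4 were lower, with a median of -1.13. This holds for the members alone: of 18 other glycogen genes compared, 2 were lower and 2 were higher, with a median of 0.04. Of 7 pentose phosphate genes, none was lower and 1 was higher, with a median of 0.30. For so few genes, these pentose phosphate counts are near the shares over all genes, given next. Taken over all 38, 19 were lower and 1 was higher, whereas 8.78% of the 12653 genes compared were lower and 10.2% were higher, and the median of all compared genes was 0.13. Among the 19 members with at least 100 FPKM in a library, 8 were lower and none higher, beside 14.4% lower and 9.47% higher of the 1246 genes at that level. Of these 8, Slc2a1 and Eno1b reached 100 FPKM only through the PyMT library, which favours a lower call for them. At a 1.5-fold limit 21 members were lower (17.3% of all genes), and at a 3-fold limit 9 were (3.53%). With 1 library a group there is no replicate error and no test, so these counts describe the libraries and not the genotypes, and fewer cells of a type cannot be told apart from less RNA per cell.

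**Figure D1:**
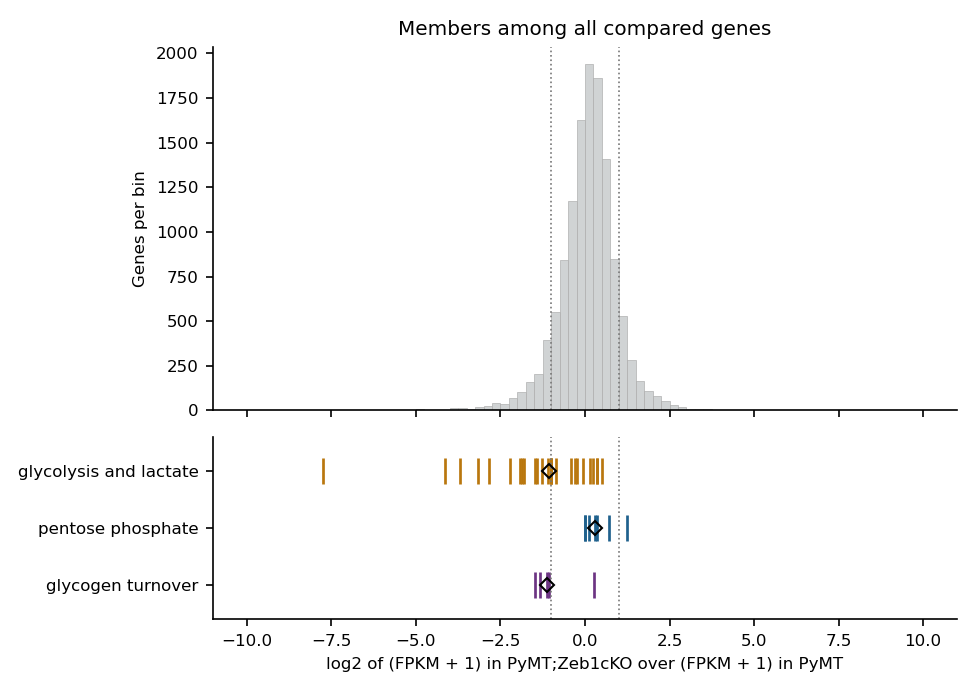
Top, number of compared genes in each 0.25-wide bin of the log2 ratio of FPKM + 1, knockout over PyMT; bottom, each member as a tick by pathway, with the median as an open diamond and dotted lines at 2-fold. The medians of glycolysis and lactate (-1.05) and of glycogen turnover (-1.13) lie left of the 2-fold line, and that of the pentose phosphate pathway (0.30) lies right of 0.

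The libraries held 21277484 expected counts (PyMT;Zeb1cKO) and 21580274 (PyMT). Zeb1 itself had 38 counts in the knockout library and 96 in the PyMT library (count ratio, knockout over PyMT with each count divided by its library's total, 0.401 with a 95% counting interval of 0.268 to 0.59). At 0.32 and 0.79 FPKM, Zeb1 was under the filter of 1 FPKM in both libraries. The luminal epithelial markers were all detected, Epcam at 480 FPKM in the knockout library and 741 in the PyMT library. Of these 6 markers 2 were lower, with summed levels of 2879 and 5750.0 FPKM and Krt18 at 712 and 1836. The 12 skeletal muscle markers summed to 11.4 FPKM in the knockout library and 336 in the PyMT library, with Acta1 at 0.25 and 112. Of the 11 that passed the filter, 9 passed only through the PyMT library, which favours a lower call for them. The other 2, Mylpf (1.8 and 19.5 FPKM) and Mb (7.49 and 56.5 FPKM), were lower. The muscle isoforms Pgam2, Pygm and Fbp2, which passed only through the PyMT library, were called lower, and Pfkm was not lower. Eno3 (2.53 and 6.04 FPKM) lay just within 2-fold only because 1 was added to both values. Its count ratio was 0.439 (0.348 to 0.551). The 10 neutrophil markers summed to 97.5 FPKM in the knockout library and 561 in the PyMT library, of which Ltf alone gave 81.2 and 281. Cxcr2, Elane, Mpo and Ly6g were under 1 FPKM in both libraries. Of the 6 that passed, Ngp, Camp and Retnlg did so only through the PyMT library, Ngp and Camp being absent from the knockout table. The other 3, Ltf (81.2 and 281 FPKM), S100a8 (14.99 and 226 FPKM) and S100a9 (1.03 and 39.1 FPKM), were lower. Of 8 immediate-early genes 7 were lower (305 and 1011 FPKM summed, Junb at 70.4 and 266), and all 8 proliferation genes were higher (332 and 43.0 FPKM summed, Rrm2 at 61.5 and 6.27). None of 5 pan-leukocyte markers (Ikzf1 at 28.0 and 17.3 FPKM), 6 endothelial markers (Plvap at 20.7 and 29.3) or 2 adipocyte markers (Fabp4 at 14.7 and 21.1) passed 2-fold. In the knockout library 1 of 7 macrophage markers was higher (Cx3cr1 at 7.64 and 1.34 FPKM), as was 1 of 6 fibroblast markers (Lum at 14.4 and 6.36). Of 5 erythroid markers 2 were lower (Hba-a2 at 4.19 and 271 FPKM, Alas2 at 3.99 and 9.35). The genes with the highest FPKM of these lists were within 2-fold: C1qa (105 and 148), Col1a1 (259 and 231) and Hba-a1 (877 and 1315). Hba-a1 and Hba-a2 had non-whole counts in both libraries, so the value of Hba-a1 alone is uncertain. The globin genes Hbb-b1 (7 and 4691 counts) and Hbb-b2 (0 and 816) were not in the erythroid list. The part of these cells and states in the ratios of the glycolytic and glycogen genes was not tested. The knockout cannot be told apart from whatever else differed between the libraries.

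Promoter sequences are shown for 6 members, chosen to set 4 lower genes of different steps (Slc2a1, Slc16a3, Pgk1, Ldha) beside 2 that were not lower (Aldoc, Taldo1). They were chosen with their matches known. Each run is the 250 bases before an annotated start of transcription, the first of 2 starts in the table for Ldha and Aldoc, 5′ to 3′ on the gene's strand, from RefSeq on GRCm38.p6. Capitals mark ACGTG or GCGTG on either strand (CACGT and CACGC on the opposite one), the core letters of the element that hypoxia-inducible factors recognise. ACGTG overlaps the palindrome CACGTG, which E-box factors such as Myc recognise.
Slc2a1: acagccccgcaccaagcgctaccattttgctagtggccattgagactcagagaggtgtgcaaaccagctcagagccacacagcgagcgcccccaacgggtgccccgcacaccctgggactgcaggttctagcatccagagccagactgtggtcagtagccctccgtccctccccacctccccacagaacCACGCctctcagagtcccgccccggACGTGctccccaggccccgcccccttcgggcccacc
Slc16a3: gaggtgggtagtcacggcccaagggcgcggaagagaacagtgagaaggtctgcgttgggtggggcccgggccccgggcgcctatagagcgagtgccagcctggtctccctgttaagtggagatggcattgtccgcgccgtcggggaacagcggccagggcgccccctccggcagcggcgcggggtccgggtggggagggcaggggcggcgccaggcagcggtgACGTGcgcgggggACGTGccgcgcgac
Pgk1: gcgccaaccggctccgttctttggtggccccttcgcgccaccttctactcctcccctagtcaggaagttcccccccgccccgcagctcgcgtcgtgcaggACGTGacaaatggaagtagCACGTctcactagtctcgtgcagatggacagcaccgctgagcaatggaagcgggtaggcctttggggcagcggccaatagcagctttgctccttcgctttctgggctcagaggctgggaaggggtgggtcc
Ldha: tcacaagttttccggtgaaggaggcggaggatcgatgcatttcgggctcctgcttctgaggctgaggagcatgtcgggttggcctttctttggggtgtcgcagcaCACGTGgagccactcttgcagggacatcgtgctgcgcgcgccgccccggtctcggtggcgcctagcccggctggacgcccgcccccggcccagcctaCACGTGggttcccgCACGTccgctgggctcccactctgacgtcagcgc
Aldoc: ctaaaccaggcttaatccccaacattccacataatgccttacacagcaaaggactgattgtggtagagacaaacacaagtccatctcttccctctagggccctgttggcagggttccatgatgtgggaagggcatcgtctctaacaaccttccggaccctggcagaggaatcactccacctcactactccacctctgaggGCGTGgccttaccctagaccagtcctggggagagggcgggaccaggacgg
Taldo1: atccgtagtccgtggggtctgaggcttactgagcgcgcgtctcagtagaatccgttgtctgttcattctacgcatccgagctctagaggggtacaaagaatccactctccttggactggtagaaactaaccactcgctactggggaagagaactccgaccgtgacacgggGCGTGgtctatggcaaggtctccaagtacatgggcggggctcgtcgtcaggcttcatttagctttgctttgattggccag
They lie at chr4:119108495-119108744 (Slc2a1), chr11:120948817-120949066 (Slc16a3), chrX:106186850-106187099 (Pgk1), chr7:46845554-46845803 (Ldha), chr11:78322823-78323072 (Aldoc) and chr7:141391910-141392159 (Taldo1), all on the plus strand.

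ACGTG stood in the promoters of 11 of 17 lower members (64.7%), 4 of 19 members that were not lower (21.1%) and 25.1% of 9761 compared genes with a promoter in the table. GCGTG stood in 6 of the lower members (35.3%), 16 of those not lower (84.2%) and 50.3% of the compared genes. With either form counted, 12 of the lower members (70.6%), 17 of those not lower (89.5%) and 61.7% of the compared genes had a match. A gene with several starts counts once if any of its promoters matches, and 36 of the 38 members had a promoter, all but Slc2a3 and Eno1b. Lower members without a match, such as Tpi1, Gpi1 and Eno2, were not printed. Nor were members with ACGTG that were not lower, such as Pfkfb2 and Pfkm. Among the printed promoters, Slc16a3 had ACGTG from bases -27 and -14, and Ldha held CACGTG from bases -145 and -48, counted back from the start. The match is a description of letters and not a binding site.

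Glucose uptake and trapping. Slc2a1 (Entrez gene 20525, chr4:119108745-119137330 on GRCm38) encodes GLUT1, the main basal glucose transporter of epithelial and tumour cells. It had 44.7 FPKM in the knockout library, against 405 FPKM in the PyMT library, a count ratio of 0.111 with a counting interval of 0.106 to 0.116. These intervals cover counting error alone and not the spread between animals. Slc2a3, the high-affinity transporter GLUT3, was low throughout, with 13 counts in the knockout library and 147 in the PyMT library (0.16 and 1.8 FPKM). Slc2a3, Eno1b and Eno2 passed the filter of 1 FPKM only through the PyMT library. The 2 hexokinases, which phosphorylate glucose, differed from each other. Hk2, the inducible form, had 4.38 FPKM in the knockout library and 24.0 in the PyMT library (count ratio 0.183, 0.166 to 0.202). Hk1, the constitutive form, had 114 FPKM against 120.4 (count ratio 0.97, 0.944 to 0.997), a difference close to the counting error.

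The preparatory phase. Gpi1, the isomerase that turns glucose 6-phosphate into fructose 6-phosphate, had 194 FPKM in the knockout library and 517 in the PyMT library (count ratio 0.378, 0.37 to 0.386). Phosphofructokinase commits the sugar to glycolysis and has a liver, a muscle and a platelet isoform. The platelet form Pfkp was lower, at 6.66 FPKM against 53.7 (count ratio 0.125, 0.114 to 0.136). The liver form Pfkl, the most abundant of the 3 per length in both libraries, had 180 FPKM in the knockout library and 329 in the PyMT library, which is within 2-fold (count ratio 0.549, 0.537 to 0.56). The muscle form Pfkm went the other way, at 39.8 against 33.4 FPKM (count ratio 1.2, 1.13 to 1.27).

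The level of fructose 2,6-bisphosphate, the activator of phosphofructokinase, is set by bifunctional enzymes that make and degrade it. Pfkfb3, the form with the strongest kinase side, was lower, at 6.21 FPKM in the knockout library and 24.2 in the PyMT library (count ratio 0.255, 0.234 to 0.279). Pfkfb2, the heart form, had 4.93 FPKM against 4.35, with a counting interval of 0.974 to 1.25 that holds 1. Pfkfb4 had 85 counts in the knockout library and 114 in the PyMT library, and its interval of 0.564 to 1.01 also holds 1. Tigar, a phosphatase induced by p53 that lowers the activator, had 164 against 114 counts (count ratio 1.46, 1.14 to 1.87). So 1 of these 4 regulators was lower and 3 were within 2-fold.

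Aldolase splits the 6-carbon sugar. Aldoa, the main form outside liver and brain, had 481 FPKM in the knockout library and 1745 in the PyMT library (count ratio 0.279, 0.274 to 0.284). Aldoc, the brain form, was at 177 FPKM against 125 (count ratio 1.43, 1.38 to 1.47). Both genes had whole counts in both libraries. Tpi1, which interconverts the triose phosphates, had 414 FPKM in the knockout library and 886 in the PyMT library (count ratio 0.473, 0.463 to 0.483).

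**Figure D2:**
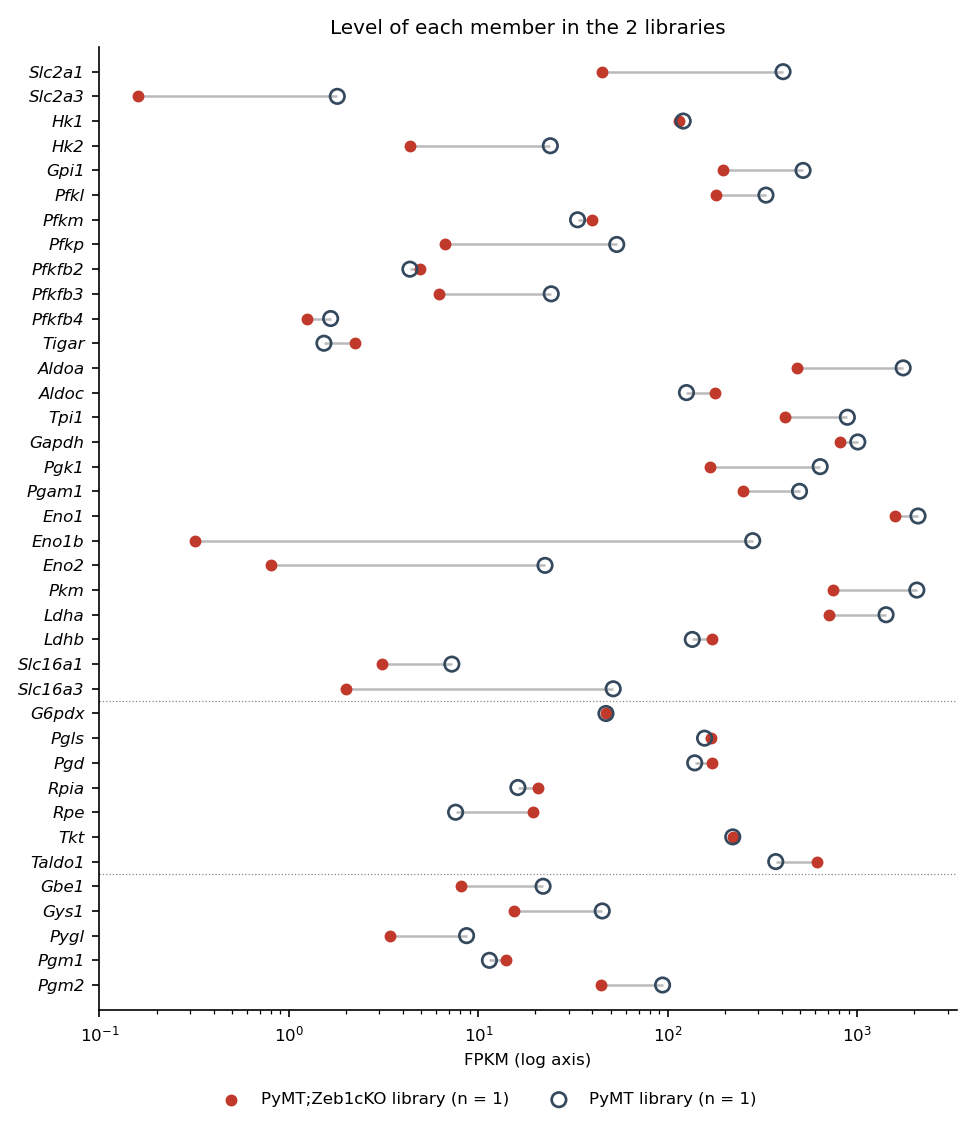
FPKM of each of the 38 members on a log axis, with filled points for the PyMT;Zeb1cKO library and open points for the PyMT library (1 library each), ordered by step with dotted lines between glycolysis and lactate, pentose phosphate and glycogen turnover. Filled points lie left of the open ones for most glycolytic genes, as for Slc2a1 (44.7 and 405 FPKM), and at or right of them for most pentose phosphate genes, as for Taldo1 (609 and 371 FPKM).

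The payoff phase. Pgk1, the first enzyme of glycolysis to make ATP, was lower, at 166 FPKM in the knockout library against 636 in the PyMT library (count ratio 0.264, 0.256 to 0.272). Pkm, which makes pyruvate, was lower as well, at 743 against 2060.4 FPKM (count ratio 0.363, 0.359 to 0.368). The gene-level value does not separate its M1 and M2 splice forms. Pgam1, the phosphoglycerate mutase, lay at the 2-fold limit, with 248 FPKM against 495 and a log2 ratio of -0.997. Eno2, the neuronal enolase, was lower, with 47 counts in the knockout library and 1357 in the PyMT library (count ratio 0.0351, 0.0257 to 0.047), or 0.8 and 22.5 FPKM.

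Gapdh and Eno1 cannot be read from their own rows. Gapdh oxidises glyceraldehyde 3-phosphate and is a common reference gene. Its row had 811 FPKM in the knockout library and 1005 in the PyMT library, within 2-fold, with non-whole counts of 22038 and 25940 when rounded. The tables hold 15 unnamed gene models whose deposited protein description names the same enzyme, and these took 16402 counts in the knockout library and 97349 in the PyMT library. The Gapdh row thus held 57.3% of the family's counts in the knockout library and 21.0% in the PyMT library. With the models added, the count ratio was 0.316 (0.313 to 0.32), against 0.862 (0.846 to 0.877) for the row alone, and the summed values of 1601 and 5736 FPKM were past 2-fold.

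For enolase, counts stood on copies almost wholly in the PyMT library, and the Eno1 row held 99.9% of the family's counts in the knockout library and 70.2% in the PyMT library. Eno1, the ubiquitous enolase, had 1574 FPKM in the knockout library and 2089.8 in the PyMT library (count ratio 0.761, 0.752 to 0.769). Eno1b, a near-identical gene, had 11 counts in the knockout library and 9687 in the PyMT library, which would make it the member with the lowest ratio. An unnamed model described as Eno1 protein had 18 and 21763 counts. The 3 together gave a count ratio of 0.534 (0.529 to 0.54), within 2-fold, so the value of Eno1b alone is uncertain. All 3 had non-whole counts.

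**Figure D3:**
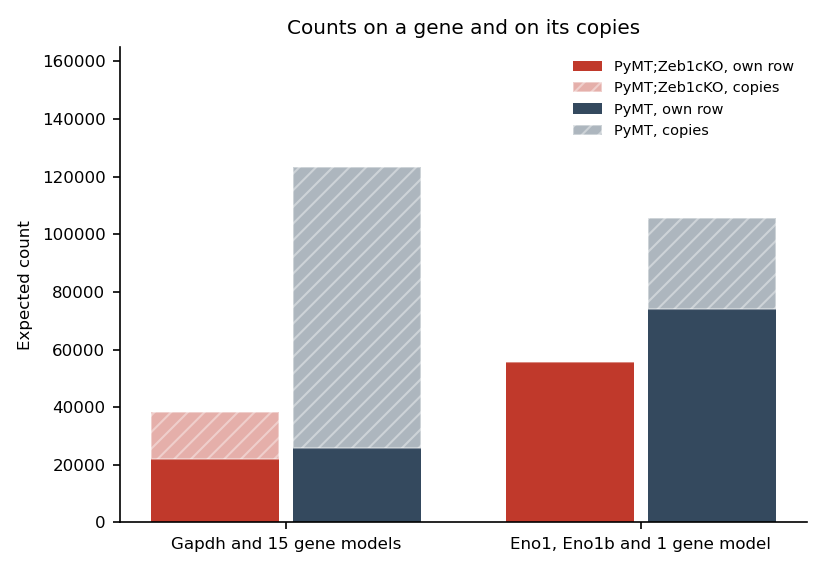
Expected counts on the row of Gapdh or Eno1 (solid) and on their copies (hatched) in the PyMT;Zeb1cKO library (left bar of each pair) and the PyMT library (right bar). The copies of Gapdh held 97349 counts in the PyMT library, more than the 25940 on the Gapdh row, and 16402 in the knockout library, fewer than the 22038 on the row.

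Non-whole counts, which arise where reads fit more than 1 gene or transcript model, marked 11 of the 38 members: Hk1, Gpi1, Pfkp, Gapdh, Pgk1, Pgam1, Eno1, Eno1b, Pkm, Ldhb and Rpe. The 1 model described as Pgk1 held no counts in the knockout library and 9 in the PyMT library, that of Pkm 3 and 5, that of Pgam1 17 and 113, and that of Ldhb 70 and 126. With its model added, Pgam1 passed 2-fold (log2 ratio -1.004, count ratio 0.503, 0.49 to 0.516), a move within the counting interval. Copies were summed for Gapdh, Eno1, Pgk1, Pgam1, Ldhb and Pkm alone. Whether unnamed models share reads with Hk1, Gpi1, Pfkp or Rpe was not tested. Among the 27 members with whole counts in both libraries, 14 were lower and none was higher.

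Lactate. Lactate dehydrogenase is a tetramer of A and B chains, the A chain favouring lactate formation and the B chain pyruvate formation. Ldha had 705 FPKM in the knockout library and 1418 in the PyMT library, just past 2-fold by FPKM (log2 ratio -1.01). Its count ratio lay just short of 2-fold, and the counting interval spans that limit (0.502, 0.494 to 0.511). Ldhb had 171 against 135 FPKM (count ratio 1.28, 1.23 to 1.34). Slc16a3 (Entrez gene 80879, chr11:120948484-120959000), which encodes the lactate exporter MCT4, had a log2 ratio of -4.13, at 2.0 FPKM in the knockout library against 51.5 in the PyMT library (count ratio 0.0396, 0.0321 to 0.0485). It stood at rank 25 from the lowest of the 12653 log2 ratios. Slc16a1, which encodes the transporter MCT1, had 3.08 against 7.24 FPKM (count ratio 0.427, 0.37 to 0.492). Bsg, the chaperone that carries both transporters to the membrane, was lower too, at 509 against 1417 FPKM (count ratio 0.364, 0.356 to 0.371).

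**Figure D4:**
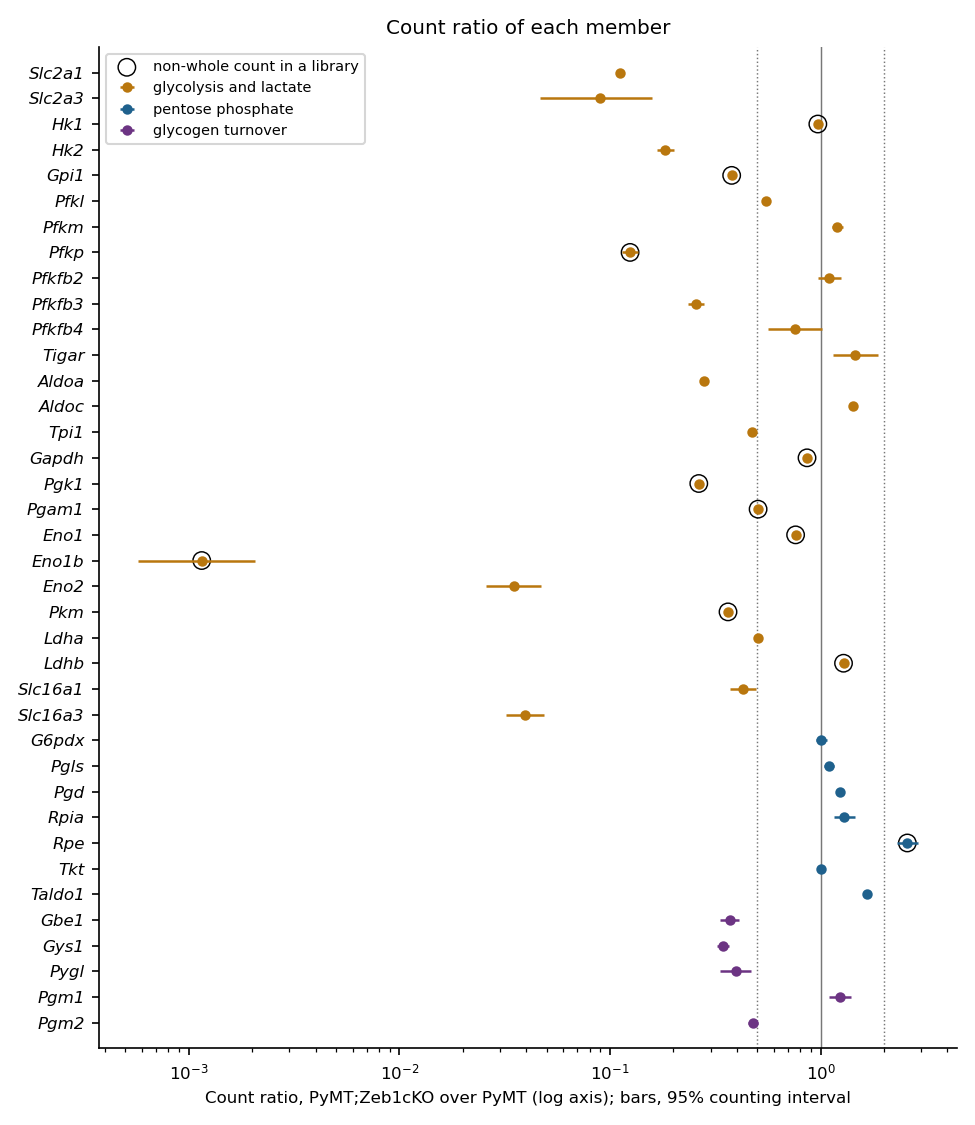
Count ratio of each member, PyMT;Zeb1cKO over PyMT, on a log axis, with the 95% counting interval as bars, a solid line at 1, dotted lines at 2-fold and a ring around members with a non-whole count. Slc16a3 (0.0396) and Eno2 (0.0351) lie farthest left among members without a ring, and all 7 pentose phosphate genes lie at or right of 1.

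The isoform make-up of several steps differed between the libraries. Isoforms of a step were compared as shares of its summed FPKM, which is per length. Pfkfb3 made up 50.1% of the 3 kinases for fructose 2,6-bisphosphate in the knockout library and 80.1% in the PyMT library, and Pfkfb2 39.8% and 14.4%. Aldoc made up 27.0% of aldolase in the knockout library and 6.70% in the PyMT library. For lactate dehydrogenase the share of Ldhb was 19.5% against 8.67%. Slc16a3 held 39.4% of the summed MCT1 and MCT4 level in the knockout library and 87.7% in the PyMT library. Hk2 held 3.68% of hexokinase against 16.6%, and Pfkp 2.94% of phosphofructokinase against 12.9%, while Pfkl held 79.5% and 79.1%. Slc2a1 held 99.6% of the summed FPKM of Slc2a1 and Slc2a3 in both libraries. Other transporters of the family are not in that sum, among them Slc2a9, a transporter of urate and sugars, at 13.3 FPKM in the knockout library and 30.0 in the PyMT library.

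**Figure D5:**
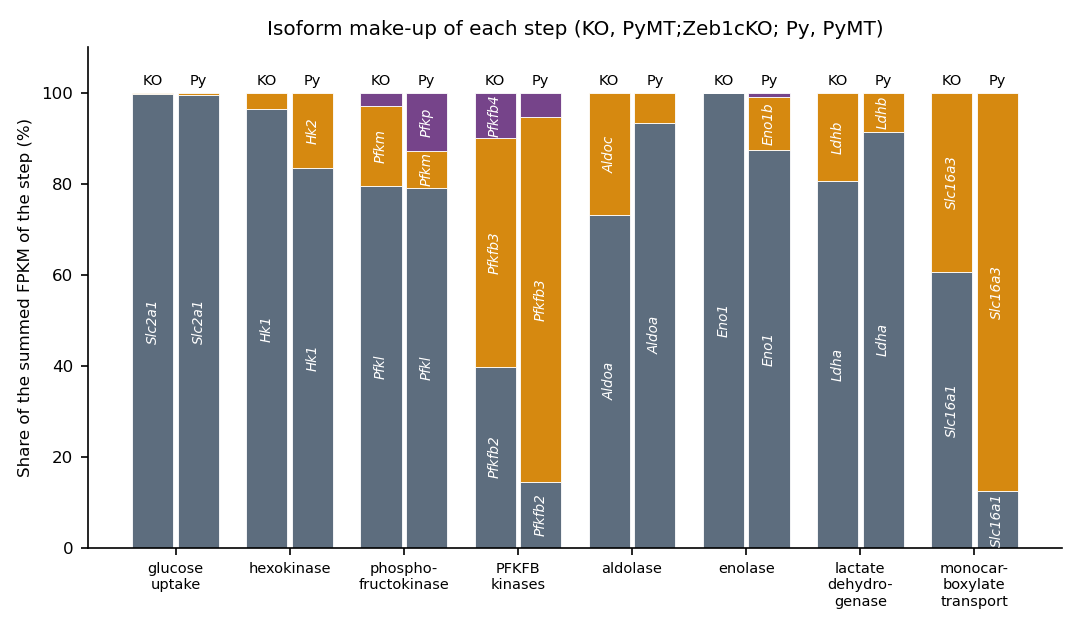
Share of the summed FPKM of each of 8 steps taken by its isoforms, in percent, in the PyMT;Zeb1cKO library (KO, left bar) and the PyMT library (Py, right bar); shares above 7% carry the gene name. The largest displacements are in monocarboxylate transport, where Slc16a3 has 39.4% and 87.7%, and in the PFKFB kinases, where Pfkfb3 has 50.1% and 80.1%.

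The members were also summed by step in TPM (transcript abundance per length, FPKM rescaled to the same total in each library). All 14 steps between uptake and lactate export had a ratio of sums, knockout over PyMT, below 1. The ratio of the sums ran between 0.0832 for monocarboxylate transport and 0.791 for hexokinase, and 9 of the 14 were at or below 0.5. The 25 genes of these steps held 0.908% of all TPM in the knockout library and 1.93% in the PyMT library, a ratio of 0.470. With the copies of Gapdh, enolase, Pgk1, Pgam1, Ldhb and Pkm added, they held 1.03% against 2.77%, a ratio of 0.370. With these copies, 11 steps were at or below 0.5. The pentose phosphate genes held 0.187% against 0.148% of TPM, a ratio of 1.26.

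The pentose phosphate pathway. Its oxidative arm makes NADPH. G6pdx, the X-linked first enzyme, had 2477 counts in the knockout library and 2491 in the PyMT library (count ratio 1.01, 0.954 to 1.07). Pgls, the lactonase, had 168 against 156 FPKM, and Pgd, the second NADPH-forming enzyme, had 171 against 139. The oxidative arm thus lay within 1.5-fold for all 3 genes.

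The non-oxidative arm makes ribose 5-phosphate and returns carbon to glycolysis. Taldo1, the transaldolase, had 609 FPKM in the knockout library and 371 in the PyMT library (count ratio 1.67, 1.62 to 1.71). Tkt, the transketolase, had 219 against 220.0 FPKM (count ratio 1.0, 0.979 to 1.03). Rpia, the ribose phosphate isomerase, had 20.8 against 16.2 FPKM. Rpe, the epimerase of ribulose phosphate, was the 1 member called higher, at 19.5 against 7.58 FPKM (count ratio 2.58, 2.3 to 2.9), and its counts were non-whole in both libraries. All 8 proliferation genes were higher in the same library, and their part in these values was not tested.

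Glycogen turnover. Gys1, the glycogen synthase of tissues other than liver, had 15.4 FPKM in the knockout library and 45.0 in the PyMT library (count ratio 0.344, 0.322 to 0.368). Gbe1, the branching enzyme, had 8.08 against 21.9 FPKM (count ratio 0.37, 0.333 to 0.411), and Pygl, the liver-type glycogen phosphorylase, had 3.41 against 8.66 (count ratio 0.396, 0.333 to 0.469). Among these members, genes of synthesis and of breakdown were thus both lower. Of the phosphorylases outside the members, Pygb went the other way within 2-fold, at 116 against 64.0 FPKM (count ratio 1.82, 1.76 to 1.88). Pygm was called lower, at 0.49 against 2.51 FPKM. The symbols of the phosphoglucomutases need care. The gene that the files call Pgm2 (Entrez gene 72157) is named Pgm1 by RefSeq on GRCm38.p6, and that called Pgm1 (Entrez gene 66681) is named Pgm2. Entrez gene 72157, described in the files as phosphoglucomutase, had 44.4 FPKM in the knockout library against 93.8 in the PyMT library (count ratio 0.477, 0.453 to 0.503). Entrez gene 66681, described as a phosphoglucomutase and phosphopentomutase, had 14.1 against 11.4 FPKM (count ratio 1.24, 1.1 to 1.4).

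Of 100 neighbouring genes of sugar metabolism in 8 lists, 79 passed the filter, 8 of them lower and 8 higher, with a median log2 ratio of 0.03. These counts are near the background of 8.78% lower and 10.2% higher over all genes. Of the 8 lower genes, 4 (Slc2a6, Pgam2, Fbp2 and Pygm) passed only through the PyMT library. Other isoforms and helpers of the same steps had 5 lower and 3 higher of 18, against 6 lower and 1 higher of 17 under either rescaling of the libraries (median ratio or TMM factors) and 6 lower and 5 higher with a pseudocount of 0.1. The lowest were Bsg and Pgam2, the muscle mutase (0.51 against 2.65 FPKM). The highest were Minpp1, a phosphatase of inositol phosphates that also acts on 2,3-bisphosphoglycerate (30.5 FPKM in the knockout library, 12.4 in the PyMT library), and Adpgk, the ADP-dependent glucokinase (11.4 and 4.96 FPKM). Among 6 gluconeogenic genes the fructose bisphosphatases parted. Fbp1, the liver form, had 44.0 FPKM in the knockout library and 9.49 in the PyMT library (count ratio 4.69, 4.1 to 5.38), and Fbp2, the muscle form, had 0.42 and 9.88.

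Other glycogen genes gave 2 lower and 2 higher of 18, and none was higher under either rescaling. Stbd1, which binds glycogen for its transfer to lysosomes, had 7.21 FPKM in the knockout library and 26.6 in the PyMT library, and Pygm, the muscle phosphorylase, had 0.49 and 2.51. Ppp1r3c, a glycogen-targeting phosphatase subunit, had 12.9 and 5.56 FPKM, and Phkb, a phosphorylase kinase subunit, had 8.73 and 3.85. Among genes of fructose, galactose, mannose and polyol metabolism, Akr1b3, the aldose reductase, was higher (58.9 FPKM in the knockout library and 23.8 in the PyMT library). Khk, the ketohexokinase, had 5.94 and 10.4 FPKM and Galk1, the galactokinase, 89.7 and 145. No gene of the hexosamine branch (7), the glycerol phosphate branch (3) or the malate-aspartate shuttle (7) passed 2-fold in either direction. Their medians were 0.17, -0.01 and 0.13. In lists this short, such counts are not far from the share over all genes (8.78% lower and 10.2% higher).

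None of 10 regulators of glycolytic genes passed 2-fold either, with a median of 0.38. In a list this short, that count is not far from the share over all genes (8.78% lower and 10.2% higher). Hif1a, the oxygen-labile subunit of hypoxia-inducible factor, had 18.5 FPKM in the knockout library and 12.4 in the PyMT library (count ratio 1.52, 1.41 to 1.64), although its activity is set mainly at the protein level. Among the rest, Esrra, an orphan nuclear receptor of energy genes, had the highest log2 ratio (0.61), and Mlxip, a glucose-sensing factor, the lowest (-0.29). Myc had 37.5 against 37.6 FPKM. Txnip, an inhibitor of glucose uptake, had 133 FPKM in the knockout library and 94.0 in the PyMT library.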

How the data were processed

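RNA of EpCAM-positive tumour cells (per the series' design text) was sequenced from poly(A)-selected, circularised libraries, per the labels' protocols. The deposited tables give, per gene, an expected count and an FPKM, per the file headers. RSEM 1.2.8, Bowtie2 2.2.5, DESeq and HISAT2 2.1.0 are named, with the build mm10 and no roles, per the submitters' processing notes. No gene annotation is named. Unnamed gene models held 2.68% of the counts in the knockout library and 2.33% in the PyMT library.

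Genes with at least 1 FPKM in a library were compared as log2 of (FPKM + 1), knockout over PyMT; this understates differences of low genes. A gene listed in 1 table enters at 0 in the other. Count ratios used rounded expected counts over library totals with exact 95% Clopper-Pearson intervals. A count within 1e-09 of an integer was called whole. With 1 library a group no test was made. Every member is named; of each related list, up to 2 genes each with the highest and lowest log2 ratios, and of marker lists the gene with the highest FPKM. Other genes of these lists (Txnip, Hif1a, Myc, Eno3, Slc2a6, Slc2a9, Mylpf, Mb, S100a8, S100a9, Ngp, Camp and Retnlg) were named after their values were seen. So were Pygb, Cx3cr1, Lum, Hba-a2, Alas2, Cxcr2, Elane, Mpo and Ly6g. The members and lists were chosen with earlier results of these data known. The steps were tested on simulated counts. The result of 1 related gene is not reported here. Alternatives are in the closing section. Python 3.11.15, numpy 2.4.6, pandas 2.3.3, scipy 1.17.1, matplotlib 3.10.9, R 4.3.3 and edgeR 4.0.16 (normalization factors alone) were used.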

Additional observations from a re-analysis of the deposited data

How the results depend on the processing

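The count of 19 lower members was 19 with a pseudocount of 0.1 and without a filter, 20 after scaling by the median ratio and 21 with TMM factors, where Pgam1 passed 2-fold, with TMM also Pfkl. It was 18 of 34 at a minimum of 5 FPKM, 14 of 27 without non-whole counts, 21 at 1.5-fold and 9 at 3-fold. At 5 FPKM, the lower members Hk2, Eno1b, Eno2, Slc16a1, Slc16a3 and Pygl passed only through the PyMT library, which favours a lower call for them. Median ratio scaling shifted log2 ratios by up to -0.12 and TMM by up to -0.15. The shift was smaller for low genes, as for Slc2a3, from -1.27 to -1.29 under both. The median over the members was -1.11 and -1.14. That median was -1.01 at 5 FPKM and without non-whole counts. It was also -1.01 with Eno1b added to Eno1 and the models to Gapdh, or with all copies added. All copies here means those of Gapdh, Eno1, Pgk1, Pgam1, Ldhb and Pkm alone. The 1 higher member, Rpe, left a count of 0 without non-whole counts and at 3-fold; with Taldo1 there were 2 at 1.5-fold. With copies added, 19 (Eno1b and the Gapdh models alone) or 20 (all copies) of 37 were lower. The small log2 ratios of G6pdx and Pgls turned to below 0 under both scalings. The ratio of summed TPM for glycolysis was 0.486 from depth-scaled counts (CPM), 0.451 after median ratio scaling and 0.370 with all copies, the last alternative chosen after seeing the data. For the pentose phosphate pathway it was 1.24 from CPM and 1.21 after median ratio scaling, and for glycogen turnover 0.436 after median ratio scaling. With a pseudocount of 0.1 the log2 ratios of Eno2 and Slc16a3 were -4.65 and -4.62. Among related genes, the calls of higher for other glycogen genes were lost under both scalings. No paired analysis was possible because each group has 1 library. The counting intervals show what depth limits; the spread between animals is not measured.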

Other observations

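Near-identical genes outside these pathways also differed in how their counts were divided. The alpha globin gene Hba-a2 had 37 counts in the PyMT;Zeb1cKO library and 2326 in the PyMT library, whereas Hba-a1 had 7380 and 10775. Of the beta globin genes, Hbb-b1 had 7 and 4691 counts, and Hbb-b2 was not listed in the knockout table and had 816 in the PyMT table. Hbb-bs had 3474 and 4507 counts and Hbb-bt 649 and 759. In inbred mice Hbb-b1 and Hbb-b2 belong to one haplotype of the beta globin locus and Hbb-bs and Hbb-bt to another. Whether the tumours differed in strain background was not tested. These genes were chosen after their values were seen.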
